A study of Mus musculus with 4 samples.

Results

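Liver, visceral and foregut endoderm genes were followed in embryonic mouse hearts in which Hdac3, which encodes a histone deacetylase, was targeted with Cre, and in control hearts. The 36 genes were taken from a list of 37 names (Spink1 also appears under its older name, Spink3, which is the one in the files), each was matched to the array by gene name, and each was represented by its brightest probe. Of these 36 genes, among 30199 genes with a probe, 23 passed a filter that asks for a signal well above background in 1 group's channel of every array, as did 19619 genes in all. The other 13 did not, and 7 of them (Apoa1, Apoa4, Fgb, Foxa1, Foxa3, Onecut1 and Nkx2-1) were at background in all 8 channels.

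The mutant pools came from Nkx2.5Cre; Hdac3f/f embryos and the control pools from Hdac3f/f littermates, all at embryonic day 9.5 and on a mixed CD1/B6/129 background. RNA from 3 dissected mutant hearts and 3 dissected control hearts was pooled and put on each of 4 two-colour arrays of 1 slide, so each value is a ratio between a pair of pools and n = 4 pairs. Both groups carry the floxed Hdac3 alleles, and the labels give Cre to the mutants only, so loss of Hdac3 and the presence of Cre cannot be told apart. The labels do not say how the Cre transgene was made. Nkx2-5 itself is active in cardiac progenitors and, in the mouse embryo, also in pharyngeal endoderm. Embryonic stem cells are named in the description field of replicates 2 to 4, against hearts in their titles, sources and genotypes. The 12 heart muscle markers had medians at the 99.6th to 99.8th percentile of all probes in every channel. Of 8 pluripotency markers, Nanog, Utf1, Zfp42, Esrrb, Tdgf1 and Dppa5a were well above background in all 8 channels, Dppa4 in 1 mutant and 1 control channel, and Pou5f1 in 0. The pluripotency markers were thus mixed, while the heart muscle markers, near the top of every channel, go with the heart labels.

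The direction of the ratios is not settled by the sources. The labels place mutant RNA in the red dye, Cy5, on all 4 arrays. The deposited columns, named as mutant against wild type, had slopes of 1.03 and 1.01 on Cy5 over Cy3 for arrays 1 and 2, and of -0.99 and -1.01 for arrays 3 and 4, among bright probes. Over all 39429 probes the deposited columns of arrays 1 and 2 correlated with those of arrays 3 and 4 at r of -0.047 (1 and 3), -0.42 (1 and 4), -0.073 (2 and 3) and -0.27 (2 and 4). With Cy5 over Cy3 in their place, these pairs had r of 0.27, 0.50, 0.25 and 0.40. The values below follow the deposited columns, in which arrays 3 and 4 have mutant RNA in Cy3, and the reading with mutant RNA in Cy5 on every array is given beside them as the labelled reading. Hdac3 had log2 ratios of -0.22, -0.50, -0.52 and -1.15 on arrays 1 to 4 in the deposited columns, with a mean of -0.60 ± 0.39 (SD, n = 4; limma, adjusted p = 0.586), and a mean of 0.24 in the labelled reading. The sources used here do not say whether its 1 probe lies in the floxed exons.

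The definitive endoderm of the foregut gives rise to the liver, lung, thyroid and pharynx, and the hepatic bud grows next to the heart at about this stage. The visceral endoderm of the yolk sac, a separate early epithelium, makes many of the same secreted proteins: alpha-fetoprotein, transthyretin, transferrin and the apolipoproteins, which carry hormones, metals and lipids. Transcription factors of the FOXA and HNF families switch on these genes in liver and gut. The keratins, claudins and Epcam of the list are general features of simple epithelia and are not limited to endoderm.

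The promoters of Afp and Apoc2, which had the highest mean ratios among the carrier genes, and of Alb, the neighbour of Afp, which did not pass the background filter, are shown as the 250 bases before each gene's start (RefSeq, GRCm38.p6). Capitals mark matches to the HNF1 arm GTTAAT and the FOXA core TGTTTAC or TGTTTGC, both searched on either strand, and to TATAAA, searched on the gene's strand.
Afp (chr5:90490464-90490713, plus strand): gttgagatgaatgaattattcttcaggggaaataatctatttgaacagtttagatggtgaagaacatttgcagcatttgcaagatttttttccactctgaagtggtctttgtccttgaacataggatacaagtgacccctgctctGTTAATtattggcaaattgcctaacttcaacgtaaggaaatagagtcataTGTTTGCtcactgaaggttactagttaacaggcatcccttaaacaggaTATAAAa
Alb (chr5:90460620-90460869, plus strand): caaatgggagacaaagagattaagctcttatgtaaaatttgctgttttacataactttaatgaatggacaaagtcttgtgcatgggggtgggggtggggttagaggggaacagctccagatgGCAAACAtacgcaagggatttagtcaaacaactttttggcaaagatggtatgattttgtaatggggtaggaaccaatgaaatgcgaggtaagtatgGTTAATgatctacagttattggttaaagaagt
Apoc2 (chr7:19677942-19678191, minus strand): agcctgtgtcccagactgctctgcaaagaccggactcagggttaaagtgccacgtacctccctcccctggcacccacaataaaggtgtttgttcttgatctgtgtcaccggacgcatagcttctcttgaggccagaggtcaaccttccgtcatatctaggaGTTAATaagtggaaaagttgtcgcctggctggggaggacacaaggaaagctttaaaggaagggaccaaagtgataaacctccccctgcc

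In Afp the HNF1 arm lay at bases 146 to 151 of the window, the FOXA core at 196 to 202 and TATAAA at 244 to 249. In Alb the FOXA core, on the opposite strand, lay at 123 to 129 and the HNF1 arm at 219 to 224, and in Apoc2 the HNF1 arm lay at 162 to 167. Promoter windows of 300 bases (250 before and 50 after the start) were found for 30 of the 36 genes, 37 windows in all, since some genes have several. The HNF1 arm was found in 6 of these 37 windows (of Afp, Alb, Apoc2, Apoe, Fgb and Foxa2) and in 7.1% of all 32851 promoters. The FOXA core was found in 8 windows (of Afp, Alb, Apoa1, Apoa2, Apob, Apoe, Foxa1 and Rbp4) and in 8.48% of all promoters, and TATAAA in 7 windows and in 8.32%. The GATA core AGATAA was found in 2 windows, of Foxa2 and Krt8, and in 11.2% of all promoters. The HNF4 site CAAAGTCCA (0.475% of promoters) and the full HNF1 palindrome (0.00913%) were found in 0 of the 37, and a full HNF1 match would also contain an HNF1 arm. Both Alb and Afp hold an HNF1 arm and a FOXA core, and they differed on the arrays, where Alb was well above background in 2 mutant and 2 control channels and Afp in all 8.

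The ratios below are read from 60-base probes, of which 3 are shown because they stand for a bright gene with replicate spots (Apoe), a gene higher on every array (Apom) and the defining liver gene that was not detected on all arrays (Alb). Positions are those of the array design, in mm9, and each sequence is in the sense of the transcript.
Apoe (chr7:20281732-20281791, minus strand): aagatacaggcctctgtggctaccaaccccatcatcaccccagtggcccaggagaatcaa
Apom (chr17:35267047-35267106, minus strand): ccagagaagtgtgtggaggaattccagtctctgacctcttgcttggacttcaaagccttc
Alb (chr5:90901598-90901657, plus strand): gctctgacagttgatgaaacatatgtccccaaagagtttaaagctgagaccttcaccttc

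In the deposited columns the carrier genes and their companions were mostly higher in the mutant pools, and no gene passed the test across all genes. Of the 23 genes above background, 10 were higher on all 4 arrays, a pattern seen in 10.0% of all genes tested, and 0 were lower on all 4, seen in 9.72%. The mean ratio was above 0 for 19 of the 23, against 53.5% of all genes, and at or above 0.5 for 3 of them (Afp, Apoc2 and Spink1), against 1.03% of all genes. At an unadjusted p below 0.05 (limma, log2 ratio against 0), 9 of the 23 were higher, against 3.88% of all genes, and 0 were lower, against 4.58%. Foxa2, counted in the 10 and the 9 above, passed the filter through the mutant channels only, where it was higher. With a filter that asks for both channels of every array, 9 of 22 genes were higher on all 4, and the share of all genes was not computed under it. After adjustment over 19619 genes, 0 of the 23 were called in either direction, as were 0% of all genes in each direction, and the adjusted p of the 23 ran from 0.578 to 0.924. Their median log2 ratio was 0.19 (0.071, 0.18, 0.26 and 0.17 on arrays 1 to 4), beside 0.011 over all genes. In bulk hearts, more cells of a type and more RNA per cell cannot be told apart.

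In the labelled reading this pattern was not seen. That reading has mutant RNA in Cy5 on every array, so genotype and dye cannot be told apart in it. There 2 of the 23 genes, Cubn and Hhex, were higher on all 4 arrays, against 13.2% of all genes, and 1, Krt7, was lower on all 4, against 13.7%. The mean was above 0 for 11 of the 23, against 49.9% of all genes, and the median was -0.001. No one of the 23 passed the test in that reading (smallest adjusted p = 0.105, limma, for Krt7), where 0.678% of all genes were called higher and 0.0306% lower. The means of 8 of the 23 genes turned sign between the readings. The labelled mean is the mean of Cy5 over Cy3. If the deposited direction is right, a mutant change equal on all 4 arrays cancels in it, and a dye effect stays. If the labels are right, such a change cancels in the deposited mean instead. A labelled mean near 0 or of the other sign is thus no test of whether a deposited mean holds.

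**Figure D1:**
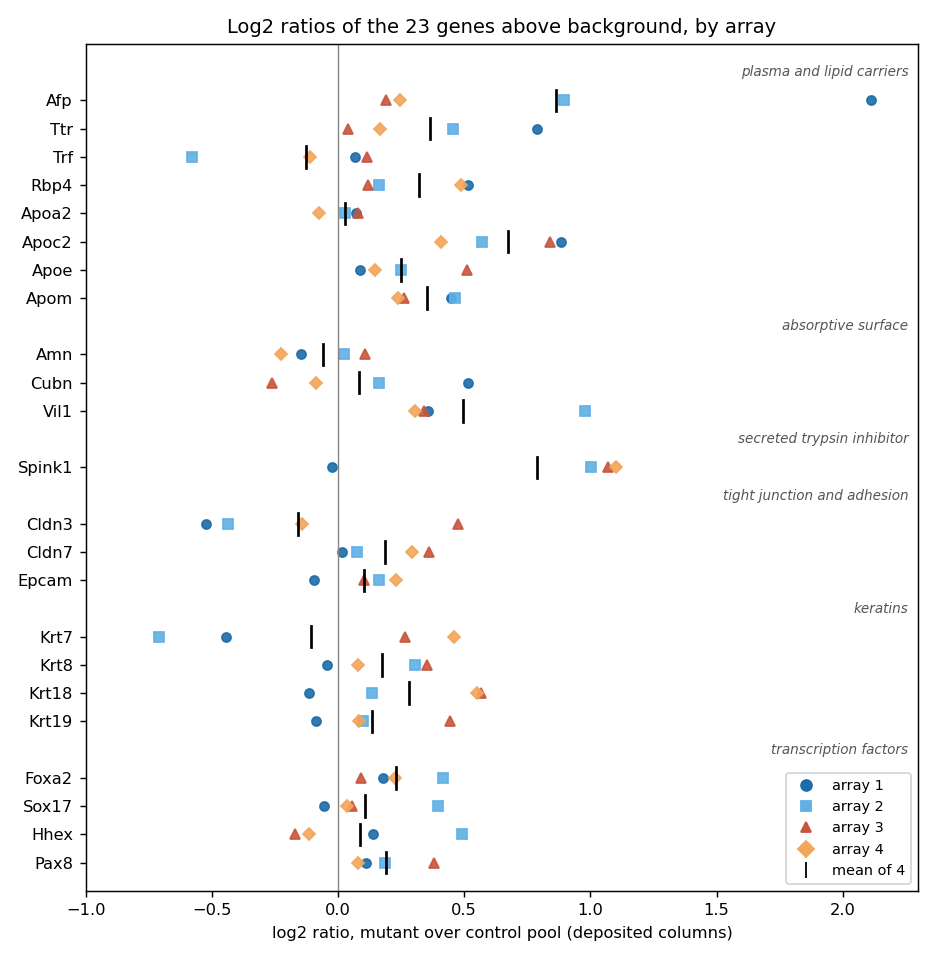
Log2 ratio of mutant over control pool (x axis) on each of the 4 arrays for the 23 genes above background, by role, from the deposited columns; the black bar is the mean of 4. Afp on array 1 lies at 2.11, beyond every other value, and Spink1 lies near 0 on array 1 and near 1 on the other arrays.

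Among the plasma and lipid carriers, 8 of 12 genes were above background. Of these, 7 had a mean above 0, beside 53.5% of all genes tested, and 6 were higher on all 4 arrays, beside 10.0%. Their median ratio was 0.34, with array medians of 0.48, 0.35, 0.15 and 0.20, and 0.037 in the labelled reading. Afp encodes alpha-fetoprotein, the main plasma protein of the fetal liver and yolk sac. Its signals were 229, 82.3, 45.0 and 46.8 units in the mutant pools of arrays 1 to 4, against 36.0, 34.9, 34.5 and 34.9 units in the control pools. Every mutant pool was thus above every control pool, and the mutant pool of array 1 stood far above the rest. The log2 ratios were 2.11, 0.90, 0.19 and 0.25, with a mean of 0.86 ± 0.89 (SD, n = 4; limma, adjusted p = 0.586). The probe has 10 spots on each array, whose log2 ratios had SDs of 0.05 to 0.13, which cover spot noise within an array and not the spread between pools. Without array 1 the mean was 0.45, and in the labelled reading it was 0.64, with 2 arrays above 0 and 2 below.

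Ttr encodes transthyretin, the carrier of thyroid hormone and of the retinol-binding protein. Its signals were 53.1, 37.9, 35.6 and 39.8 units in the mutant pools, against 21.5, 22.6, 35.0 and 34.3 units in the control pools. The 2 groups did not overlap, but on array 3 the pools differed by little. The log2 ratios were 0.79, 0.46, 0.039 and 0.17 (mean 0.36 ± 0.33 SD, n = 4; limma, adjusted p = 0.586), and the mean was 0.22 without array 1, 0.57 by the scanner software's log ratio and 0.26 in the labelled reading. Afp and Ttr shared the order of their largest arrays, with array 1 highest and array 2 next. Rbp4, the retinol-binding protein that transthyretin carries, had its higher ratios on arrays 1 and 4, at 0.51, 0.16, 0.12 and 0.49 (mean 0.32 ± 0.21 SD), and its mean in the labelled reading was 0.018.

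Apoc2 encodes the cofactor that activates lipoprotein lipase. Its signals were 85.2, 65.6, 136 and 91.1 units in the mutant pools, against 39.9, 40.1, 61.9 and 61.6 units in the control pools, with no overlap. The log2 ratios were 0.88, 0.57, 0.84 and 0.41, with a mean of 0.68 ± 0.23 (SD, n = 4), a ratio of 1.60, and the smallest adjusted p of the 23 genes (limma, 0.578; unadjusted p = 0.000478). Each of the 4 arrays was above 0.4, and the mean was 0.052 in the labelled reading, in which arrays 3 and 4 are below 0. Apom, a carrier of sphingosine-1-phosphate on lipoproteins, had ratios of 0.45, 0.46, 0.26 and 0.24 (mean 0.35 ± 0.12 SD, n = 4), the closest agreement between arrays among the 10 genes higher on all 4. Apoe, a lipoprotein ligand made by many cell types, had 7999, 9449, 16605 and 13783 units in the mutant pools, against 7272, 7661, 12329 and 13034 units in the control pools. Its groups overlapped across arrays, and the paired ratios were 0.088, 0.25, 0.51 and 0.15 (mean 0.25 ± 0.19 SD), with a mean of 0.16 without array 3 and of -0.080 in the labelled reading.

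The other carriers were mixed. Trf, the iron carrier transferrin, had ratios of 0.069, -0.58, 0.12 and -0.11 (mean -0.13 ± 0.32 SD, n = 4), and its second probe had a mean of -0.075. For Apoa2, a structural protein of high-density lipoprotein, the probe used had a mean of 0.026 ± 0.071, and a second probe above background had a mean of -0.37 ± 0.26 and lay below 0 on all 4 arrays. Alb, Apoa1, Apoa4 and Apob, which encode albumin and 3 lipoprotein scaffolds, did not pass the background filter. Apob was well above background in 3 mutant and 1 control channels. The fibrinogen chains Fgb and Fgg, clotting proteins made by hepatocytes, also failed the filter, with 0 channels above background for Fgb and 1 mutant channel for Fgg. Over all 13 genes that failed it, mean ratios ran from -0.015 to 0.23 and 11 were above 0, with no share computed for all genes of the array that failed it.

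**Figure D2:**
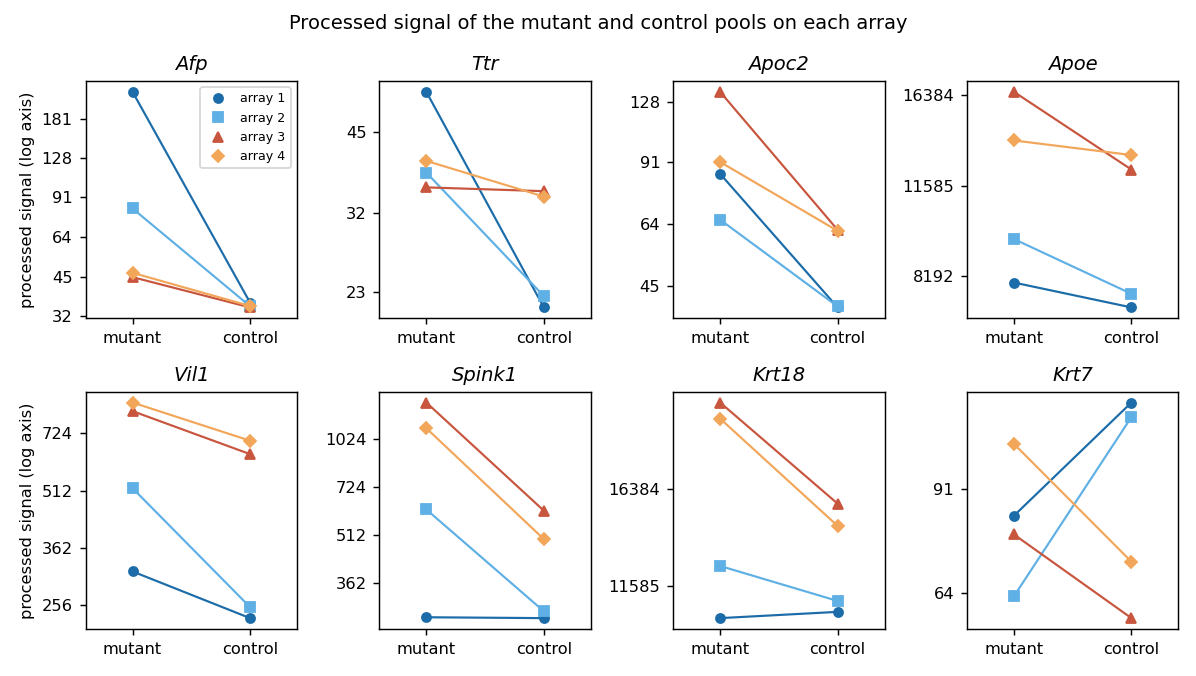
Background-subtracted, dye-normalized signal (log axis, array units) of the mutant and the control pool on each array for 8 genes, with a line joining the 2 pools of an array; pools are assigned as in the deposited columns. For Afp and Apoc2 every mutant pool is above every control pool, while the lines of Krt7 cross.

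The absorptive surface genes did not move together. Vil1 encodes villin, which bundles actin in microvilli. Its signals were 314, 520, 829 and 873 units in the mutant pools, against 237, 253, 639 and 693 units in the control pools, higher in the mutant pool of each array and overlapping across arrays. The ratios were 0.36, 0.98, 0.34 and 0.30 (mean 0.50 ± 0.32 SD, n = 4; limma, adjusted p = 0.586), with 0.33 without array 2 and 0.17 in the labelled reading. Cubn and Amn encode cubilin and amnionless, the 2 chains of an endocytic receptor of the visceral endoderm, kidney and gut. Cubn had ratios of 0.52, 0.16, -0.26 and -0.089 (mean 0.083 ± 0.34 SD), and Amn had a mean of -0.060 ± 0.15. In the labelled reading Cubn was above 0 on all 4 arrays with a mean of 0.26, and a second Cubn probe was not well above background in any channel.

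Spink1, listed in the files as Spink3, encodes a secreted trypsin inhibitor of pancreas and gut. Its signals were 283, 615, 1330 and 1104.9 units in the mutant pools, against 281, 295, 610 and 497 units in the control pools. On array 1 the pools were within 2 units of each other, and on the other arrays the mutant pool was higher. The log2 ratios were -0.023, 1.00, 1.07 and 1.10, with a mean of 0.79 ± 0.54 (SD, n = 4; limma, adjusted p = 0.586). The mean was 1.06 without array 1 (adjusted p = 0.087, limma on 3 arrays) and -0.30 in the labelled reading.

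Tight junction, adhesion and keratin genes had their lowest medians on array 1 and their highest on array 3. Of the junction genes, 3 of 6 were above background (Cldn3, Cldn7 and Epcam), with array medians of -0.094, 0.075, 0.36 and 0.23. Cldn3, a sealing claudin, had ratios of -0.52, -0.44, 0.47 and -0.14 (mean -0.16 ± 0.45 SD, n = 4), and its mean was 0.0097 when the scanner intensities were normalized by loess. Cldn7, a claudin of simple epithelia, was above 0 on all 4 arrays, at 0.016, 0.075, 0.36 and 0.29 (mean 0.19 ± 0.17 SD), with -0.14 in the labelled reading. Epcam, an epithelial adhesion molecule, had a mean of 0.10 ± 0.14. Cldn4, Cldn6 and Cdh1, the last encoding E-cadherin, did not pass the filter.

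All 4 keratins were above background, with array medians of -0.10, 0.12, 0.40 and 0.27 and a median mean ratio of 0.15. Krt18, a filament protein of simple epithelia and of early heart muscle, had 10351, 12462, 22297 and 21057 units in the mutant pools, against 10584, 11003, 15555 and 14371 units in the control pools. Its ratios were -0.12, 0.13, 0.57 and 0.55 (mean 0.28 ± 0.33 SD, n = 4), so that arrays 3 and 4 carried the difference, and its mean in the labelled reading was -0.27. Krt8, the filament partner of Krt18, had a mean of 0.17 ± 0.19, a second probe above background had -0.053, and Krt19 had 0.14 ± 0.22. Krt7 had 83.1, 63.3, 78.0 and 106 units in the mutant pools, against 122, 116, 58.9 and 71.2 units in the control pools. Its ratios of -0.45, -0.71, 0.26 and 0.46 (mean -0.11 ± 0.56 SD, n = 4) were below 0 on arrays 1 and 2 and above 0 on arrays 3 and 4. In the labelled reading its mean was -0.47 and all 4 arrays were below 0.

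Of 8 transcription factors, 4 were above background and all 4 had means above 0, beside 53.5% of all genes tested. Foxa2, which opens chromatin at endoderm enhancers, had ratios of 0.18, 0.42, 0.090 and 0.23 (mean 0.23 ± 0.14 SD, n = 4; limma, adjusted p = 0.586), with a mean of 0.56 by the scanner software's log ratio and 0.071 in the labelled reading. It was the 1 gene of the 23 that failed the background filter in a channel, being well above background in 4 mutant and 3 control channels, and its second probe was not above background in any. Pax8, a thyroid and kidney factor, had ratios of 0.11, 0.18, 0.38 and 0.079 (mean 0.19 ± 0.14 SD), with -0.041 in the labelled reading. In the deposited direction its mean depended on the source of the ratios, at 0.040 by scanner loess, 0.021 by median centring and 0.44 by the scanner software's log ratio. Sox17, which specifies endoderm and is also made by endothelium, had a mean of 0.11 ± 0.20, and Hhex, needed for liver and for endocardial development, had 0.087 ± 0.30. Foxa1, Foxa3, Onecut1 and Nkx2-1, factors of liver, lung and thyroid, were not well above background in any channel.

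**Figure D3:**
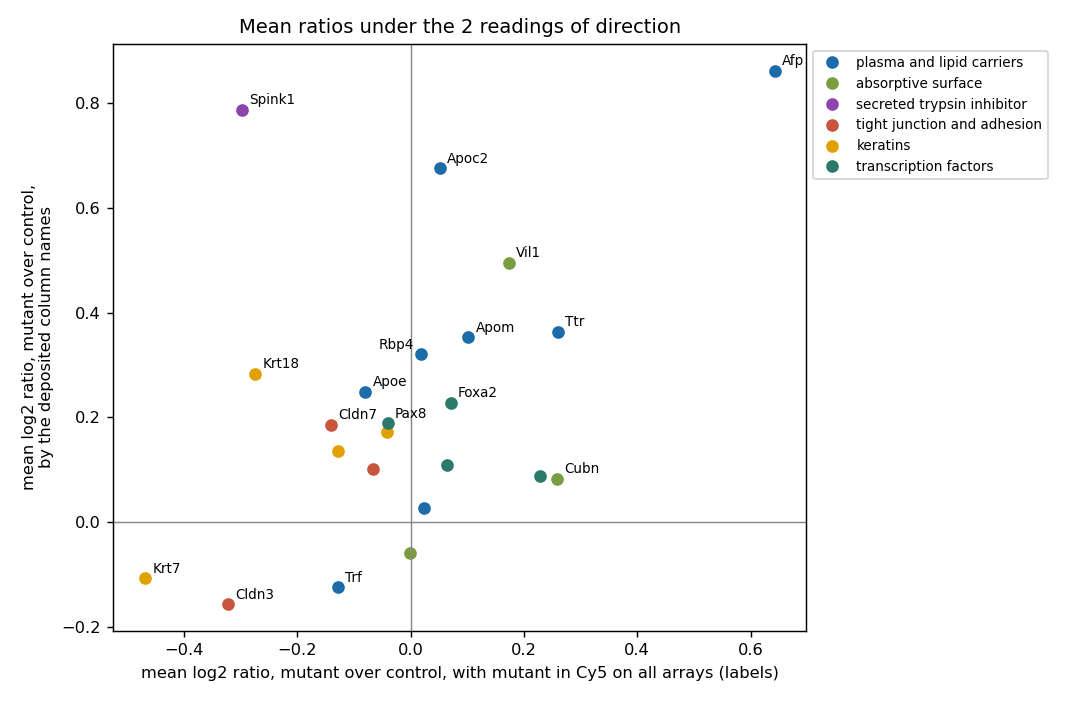
Mean log2 ratio of each of the 23 genes in the deposited columns (y axis) against the labelled reading with mutant RNA in Cy5 on all arrays (x axis), coloured by role. Afp and Ttr are above 0 on both axes, Spink1 and Krt18 are above 0 on the y axis only, and Krt7, Cldn3 and Trf are below 0 on both.

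Other genes of the same tissues gave no call either. Of all genes tested, 53.5% had a mean above 0. Of 19 further liver and visceral endoderm genes, 8 were above background, 5 with a mean above 0 and 3 below, with a median of 0.17 (0.020 in the labelled reading). Lrp2, the endocytic partner of cubilin, had the smallest p of these, with ratios of 0.038, 0.80, 0.11 and 0.52 (mean 0.37 ± 0.36 SD, n = 4). Its mean in the labelled reading was 0.0505. The hepatocyte products Ahsg, Apoh and F2 were not well above background in any channel. Of 14 further foregut and pharyngeal genes, 5 were above background (Nkx2-6, Otx2, Sfrp5, Nepn and Nkx2-3), with array medians of -0.20, 0.14, 0.48 and 0.072. The median of their means was 0.11, and -0.18 in the labelled reading. Shh, which marks foregut and pharyngeal endoderm, was not above background in any channel, nor were Pax1, Cer1 and Rfx6. Of 12 general epithelial genes, 7 were above background, 6 with a mean above 0 (median 0.20, and 0.009 in the labelled reading). Grhl2, an epithelial transcription factor, had the smallest p (ratios of 0.057, 0.44, 0.51 and 0.43), and its labelled mean was -0.11. Alb and Fgb, which define hepatocytes, and Nkx2-1, which defines lung and thyroid, thus did not pass the filter. In the same hearts Afp, Ttr, the keratins and the transcription factors Hhex, Foxa2, Pax8 and Prox1 did pass it.

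Markers of other cells in a heart dissection are given beside these ratios. None of them passed the test across all genes (limma), and their part in the ratios was not tested. Over all 19619 genes tested, 9124 had a mean below 0. All 9 mesothelium and epicardium markers had means below 0 (median -0.18, array medians -0.024, -0.70, -0.27 and -0.065). In the labelled reading 3 of the 9 had means above 0 (median -0.13). Their summed signal was 3913 to 6217 units in the mutant pools, against 4874 to 6416 units in the control pools. Upk1b (-0.52) and Tcf21 (-0.42) were lower on all 4 arrays, with means of -0.073 and 0.0195 in the labelled reading. Of 9 primitive erythroid markers on the array, 8 had means below 0 (median -0.28). In the labelled reading 3 of the 9 had means above 0 (median -0.033). The sum of the erythroid markers was 225859 to 366130 units in the mutant pools, against 335833 to 466980 units in the control pools. The 12 heart muscle markers had array medians of 0.16, 0.40, -0.20 and -0.40, opposite in sign between arrays 1 and 2 and arrays 3 and 4. In the labelled reading all 12 had means above 0 (median 0.26), beside 49.9% of all genes. Genotype and dye cannot be told apart there. The sum of the heart muscle markers was 899008 to 1212440 units in the mutant pools, against 795602 to 1247177 units in the control pools. The summed signal of the 36 endoderm genes was 32246 to 68378 units in the mutant pools, against 31478 to 53679 units in the control pools. Most of it came from Krt18, Apoe, Krt8 and Krt19 (22297, 16605, 16151 and 6567 units in the mutant pool of array 3). These genes are not limited to endoderm, so the sum is not an amount of endoderm RNA. The ranges of all these sums run across arrays and do not keep the pairing of pools.

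**Figure D4:**
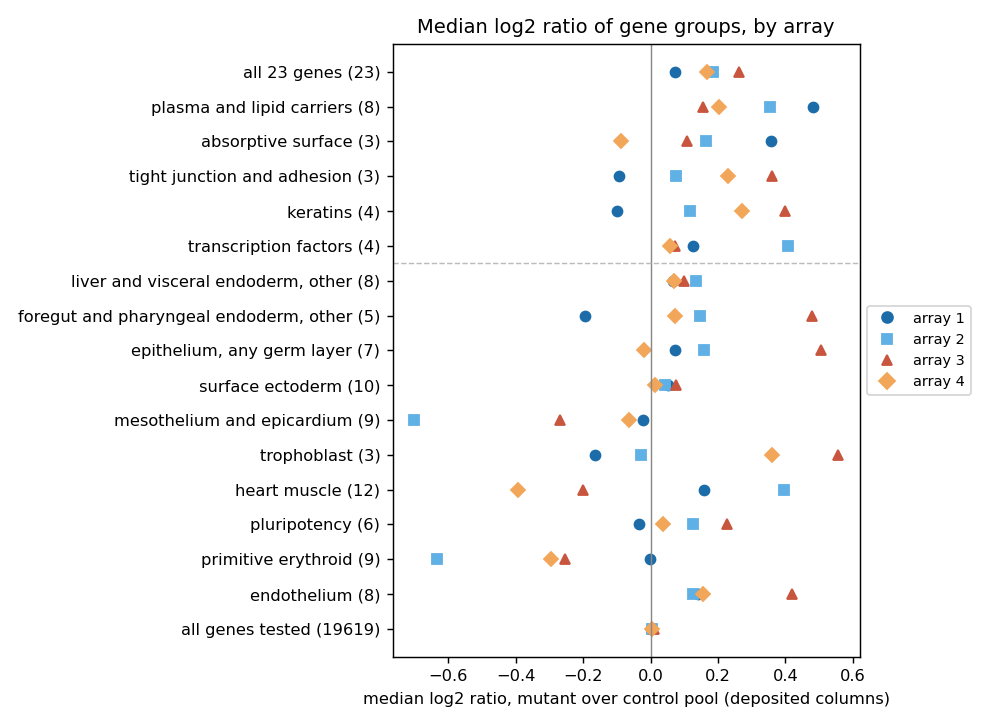
Median log2 ratio of mutant over control pool (x axis) on each array, for the 23 genes and their role groups (above the dashed line) and for other marker lists and all genes tested (below it), with the number of genes above background in brackets. The carrier genes have all 4 medians above 0, as do the 23 genes, the transcription factors, the other liver and visceral endoderm genes, surface ectoderm and endothelium. All genes tested also have all 4 above 0, at 0.001, 0.003, 0.011 and 0.003. Mesothelium and erythroid markers have all 4 below 0, the latter at -0.001 on array 1, and heart muscle markers split by pairs of arrays.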

How the data were processed

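RNA from mutant and control pools was hybridised to 4 two-colour Agilent arrays. The deposited table gives log2 ratios by a normalization not given in the sources used here, with column medians of -0.029, -0.018, 0.017 and 0.023. Its scale was compared with the scanner log ratio among bright probes only, with slopes of 1.03, 1.01, -0.99 and -1.01. For dim probes the 2 could differ, as for Foxa2 and Pax8 above. The direction of the deposited table stays unsettled. The scanner files hold intensity signals, background-subtracted and dye-normalized, and their log10 ratio, red over green. Per the file headers, these intensity and log10 values come from Feature Extraction 11.5.1.1, against version 8.5.1.1 of Agilent Feature Extraction per the submitters' processing notes.

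Spots of a probe were averaged, 1377 control spots per array were left out, and no spot was saturated. Probes well above background made up 66.6% to 71.2% of each channel, and the number of arrays limits the precision. A probe was kept if well above background on all 4 arrays in either group. Ratios were tested against 0 with limma 3.58.1 in R 4.3.3 (lmFit, eBayes), adjusted by Benjamini-Hochberg over 19619 genes at 0.05. The limma step alone was tested, on simulated ratios with known changes and no dye effect. An exact sign test of 4 arrays cannot give a two-sided p below 0.125. Probe names are of mm9, and 33 of the 36 probes' accessions matched RefSeq, all 33 to the gene's own symbol.

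Values on every array are given for genes above background with 1 sign on all 4 arrays or an array at or beyond 0.5, other members by mean, and at most 4 genes of other lists by smallest p with 1 sign on all 4. The genes and lists were chosen with earlier results of these data known. Alternatives covered the ratio source, direction, dye term, centring, dim-probe filter, probe choice, pairing and left-out arrays.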

Additional observations from a re-analysis of the deposited data

Results flagged for a closer look

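Among the 23 genes examined, 2 had 1 array far from the other 3, by the gap to the nearest array over the whole range (Dixon's ratio, 95% critical value for 4 values). Chance flags about 5% of such groups of 4. For Vil1 this share was 0.922, from array 2 at 0.98. For Spink1 it was 0.911, from array 1 at -0.023. The cause was not tested.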

How the results depend on the processing

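No one of the 23 genes was called under any alternative. With all arrays read as the labels give the dyes, 133 genes of all were called higher and 6 lower, with 98 and 9 in that reading by scanner loess, which was added after seeing the data. In that reading genotype and dye cannot be told apart. The endoderm genes higher on all 4 arrays then numbered 2 in both cases, and their median was -0.001 and -0.0158. Genes higher on all 4 arrays in the deposited direction are left out of these counts by the reversed signs of arrays 3 and 4. Arrays 1 and 2 alone gave 27 calls higher and 7 lower over all genes, and arrays 3 and 4 alone gave 17 endoderm genes higher on both. Leaving out each array in turn gave 0 to 2 calls higher over all genes and 10 to 16 endoderm genes higher on every array left, with 2 and 16 without array 1, where fewer arrays had to be above 0. The share of all genes was not computed for these counts on fewer arrays, so they are no result about the endoderm genes. Under every other alternative with the deposited direction, the endoderm genes' median stayed between 0.12 and 0.24. Centring on the median moved all genes' median to 0.066. Without the replicate block that pairs the pools of an array, 0 genes were called and the endoderm genes' median was 0.17.

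Signs of single means turned in these cases. In the labelled reading, and in it by scanner loess, the means were -0.0799 and -0.0805 for Apoe, -0.30 and -0.29 for Spink1, -0.14 and -0.12 for Cldn7, -0.27 and -0.27 for Krt18, and -0.041 and -0.23 for Pax8, and by scanner loess -0.0158 for Rbp4. On arrays 3 and 4 alone they were 0.0035 for Trf, -0.17 for Cubn, 0.17 for Cldn3 and 0.36 for Krt7. Leaving out each array in turn gave means of -0.206 to 0.0253 for Trf (highest without array 2), -0.0623 to 0.197 for Cubn (lowest without array 1) and -0.297 to 0.0927 for Krt7 (highest without array 2, and 0.00467 without array 1). Cldn3 turned to 0.0097 by scanner loess and without the block, and to 0.0375 by median centring. The cause was not tested. Dim probes such as Afp, Ttr and Foxa2 are limited by signal over background.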

Other observations

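Endothelial markers, 8 of 8 above background, had a median of 0.22 (-0.032 in the labelled reading). Of these, 5 were higher on all 4 arrays, beside 10.0% of all genes tested, and 2 were lower, beside 9.72%. Nfatc1, a transcription factor of endocardium, had ratios of 0.32, 0.38, 0.49 and 0.17, and Cldn5, an endothelial claudin, had 0.12, 0.18, 0.35 and 0.23. Kdr, a VEGF receptor, had 0.37, 0.36, 2.21 and 0.47, with array 3 far above the rest. Emcn was lower on all 4 arrays, with a mean of -0.24. None passed the test over all genes (limma, adjusted p = 0.586 for each of these 4).

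Of 10 surface ectoderm markers, all above background, Wnt6, a secreted ligand, was higher on all 4 arrays (0.43, 1.36, 0.61 and 0.75) and Perp, a desmosome protein, was lower on all 4 (mean -0.41), with means of 0.11 and 0.22 in the labelled reading. Prl3d1, a hormone of trophoblast giant cells chosen after its values were seen, had ratios of -0.86, 1.34, 1.29 and 1.29. Array 1 thus stood apart from the other 3, as for Spink1, and the mean was -0.53 in the labelled reading. Of the 6 trophoblast markers on the array, Prl3d1, Plac1 and Gata3 were well above background in all 8 channels, and Elf5, Cdx2 and Tpbpa in 0. Plac1 had ratios of 0.003, -0.225, 0.557 and 0.361, and Gata3 had -0.165, -0.029, 0.011 and 0.249. Both were below 0 on array 2, where Prl3d1 was at 1.34.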
